A study of Mus musculus with 7 samples.

Results

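The EGF receptor family and its control genes were followed in the mouse mesenchymal line C3H10T1/2 after exposure to purmorphamine, a small-molecule agonist of Smoothened (Smo). The 10 genes were picked by name as 3 receptors (Egfr, Erbb2 and Erbb3), 5 ligands (Areg, Ereg, Hbegf, Tgfa and Btc) and 2 feedback inhibitors (Errfi1 and Lrig1), and all 10 are among the 18468 genes of the count table. They were assembled around a known rise of Egfr with purmorphamine, so that the values of Egfr are given here as a description without a test. The cells were kept without serum for 12 h and then, still without serum, received 2 μM purmorphamine (n = 4 libraries, numbered 5 to 8) or 0.02% DMSO as vehicle (n = 3 libraries, numbered 2 to 4) for 48 h. All libraries came from the same unmodified line and from total RNA, and nothing in the labels says whether they came from separate cultures. The p-values therefore measure the spread between these libraries, which may be technical.

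The EGF receptor (Egfr) is a cell-surface tyrosine kinase. Its ligands are made as membrane-bound precursors that proteases release, and ligand binding brings receptors together in pairs. Erbb2 binds no known ligand and serves as a partner for the other receptors, and Erbb3 has a nearly inactive kinase, binds neuregulins and signals through its partners. The active pairs feed the Ras-ERK cascade and other pathways. Errfi1 (also known as Mig6) is a cytoplasmic protein that binds the receptor kinase domain and blocks it, whereas Lrig1 is a transmembrane protein that promotes loss of the receptors. Errfi1 and several of the ligand genes are themselves induced by receptor signaling.

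Libraries were even in depth because the authors had resampled the reads to equal numbers, with 14337225 to 14342154 reads assigned to genes. At this depth the number of reads limits precision for genes with few reads only. Reads of the Hedgehog target Gli1 ran from 7 to 12 with vehicle and from 2522 to 3171 with purmorphamine, and Ptch1 had 504 to 532 and 10296 to 11451. All 11 mesenchymal markers examined were present, with sums of 375261 to 396069 reads with vehicle and 360086 to 391868 with purmorphamine. Taken singly, 5 of the 11 were higher and 3 lower in the fit described below (adjusted p under 0.2 from edgeR). Of all genes tested, 31.4% were higher and 31.1% lower. Of 8 epithelial markers, 4 have a row, and of these Krt8, Krt14 and Krt19 had at most 1 read in any library, while Cdh1 went from 14 to 21 reads with vehicle to 110 to 135 with purmorphamine. The 5 endothelial markers summed to 779 to 820 and 1898 to 2154 reads, nearly all of them from Tek (770 to 816 and 1870 to 2124). Cdh5 was at 0 with vehicle and 21 to 26 with purmorphamine, and Pecam1, Kdr and Tie1 had at most 5 reads. The 4 haematopoietic markers with a row summed to 13 to 19 and 10 to 21 reads. The part of Cdh1- or Tek-expressing cells in the results below was not tested, and in such bulk RNA fewer cells of a kind and less RNA per cell cannot be told apart.

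Differences were taken from a fit over the 12388 genes that passed a filter on low counts (the quasi-likelihood test of edgeR, p-values adjusted by Benjamini-Hochberg). A gene was called at an adjusted p under 0.2, the study's FDR. Of the 10 genes, 9 entered the fit, and Areg lay below the filter. Of the 8 other than Egfr, 7 were called, 3 higher and 4 lower with purmorphamine. Of all genes tested, 62.5% were called (31.4% higher and 31.1% lower). Erbb3, Hbegf, Tgfa and Errfi1 were called with a change of at least 2-fold, as were 6.66% of all genes tested. As the choice of the genes used this contrast, nothing is read from these numbers. The changes divided each role: within receptors, ligands and inhibitors alike, members differed in direction or in size.

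**Figure D1:**
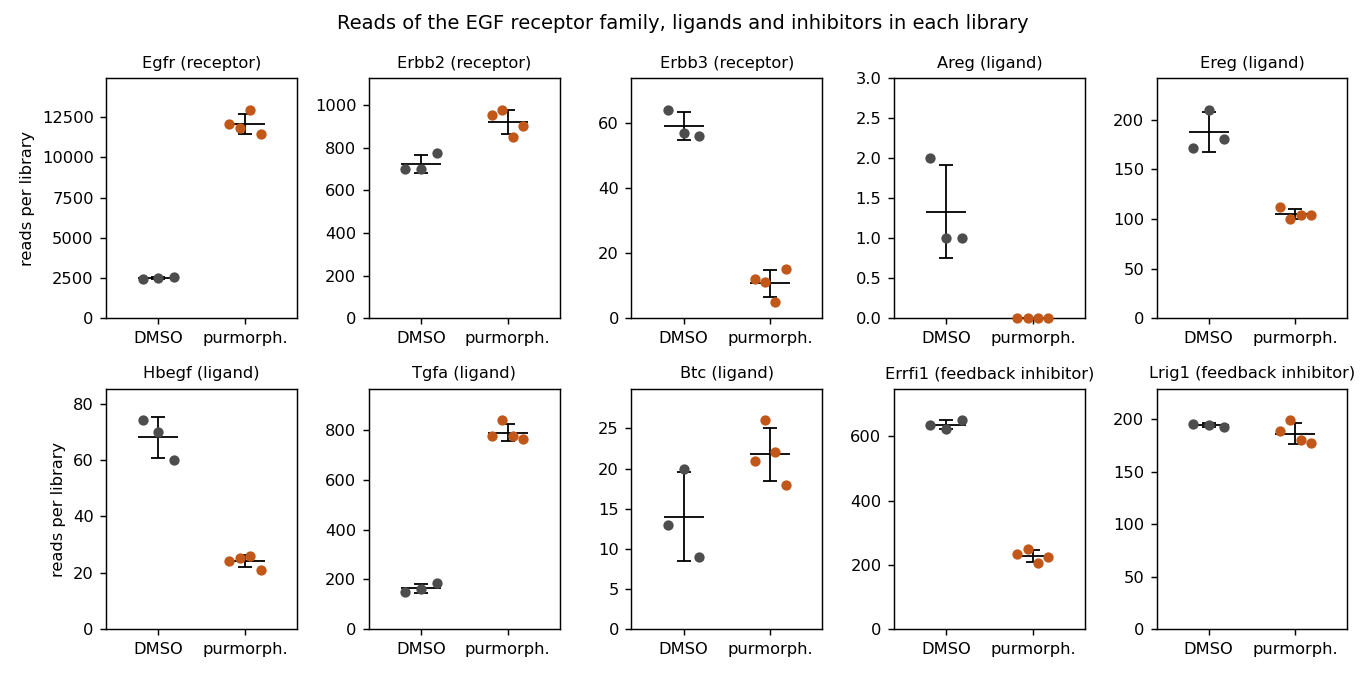
Reads per library of the 10 genes with vehicle (grey, n = 3) and purmorphamine (orange, n = 4). Points are libraries, horizontal bars the mean and whiskers the SD, and each panel has its own axis from 0. Egfr and Tgfa lie higher with purmorphamine, Erbb3, Ereg, Hbegf and Errfi1 lower, and Lrig1 and Btc overlap between the groups.

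Among the receptors, Egfr (ENSMUSG00000020122, chromosome 11 from 16652006 to 16818361 in mm9, the build the labels name) was covered by 2412, 2482 and 2562 reads with vehicle, against 12066, 11843, 12962 and 11479 after purmorphamine. Every purmorphamine library held over 4 times as many reads as any vehicle library. The fitted change was 4.71-fold (log2 fold change 2.24, standard error 0.0552), and 87 of the 12388 genes rose more. Reads were counted per gene, so that full-length and shorter, secreted forms of the receptor cannot be told apart.

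Erbb2 (ENSMUSG00000062312, chromosome 11 from 98273584 to 98299230), the partner receptor without a ligand, had vehicle counts of 702, 700 and 773 reads and purmorphamine counts of 951, 978, 850 and 903. The groups did not overlap, but the lowest purmorphamine library was close to the highest vehicle library. The increase was 1.23-fold (log2 fold change 0.30, SE 0.0609, adjusted p = 0.000708 from edgeR), far smaller than that of Egfr on the same scale.

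Erbb3 (ENSMUSG00000018166, chromosome 10 from 128004379 to 128026908), the neuregulin receptor, moved the other way, from 64, 57 and 56 reads to 12, 11, 5 and 15. The highest purmorphamine library lay far below the lowest vehicle library. Its log2 fold change was -2.49 with a standard error of 0.236 (adjusted p = 1.58e-07 from edgeR), a 5.62-fold decrease, and 67 of the 12388 genes fell more. With so few reads its 95% interval was wide, from -2.99 to -1.99 on the log2 scale. Erbb4, the remaining receptor of the family, was not analysed here.

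Tgfa (ENSMUSG00000029999, chromosome 6 from 86145220 to 86225351) encodes transforming growth factor α, a ligand that binds the EGF receptor. It was the one ligand with a large increase. It had vehicle counts of 149, 160 and 184 reads and purmorphamine counts of 777, 839, 775 and 766. The purmorphamine libraries lay within a narrow band, all above 4 times the highest vehicle library. The increase was 4.65-fold (log2 fold change 2.22, SE 0.0786, adjusted p = 5.79e-13 from edgeR).

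The changes of Tgfa and Egfr were nearly of one size. When each gene's log2 CPM (reads scaled to library size with TMM factors) was centred on its vehicle mean, the profile of Tgfa over the 7 libraries differed from that of Egfr by a root mean square of 0.0908, the 3rd smallest difference of the 10672 genes that averaged 50 reads or more. Nearer to Egfr were Magi1, a scaffold protein of cell junctions, at 0.0575, and Adamts6, a secreted metalloprotease, at 0.0807. With 2 groups only, such likeness mostly records the size of the change: 227 genes had a correlation with Egfr above 0.99 over the same 7 libraries.

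The 250 bases before the annotated start are shown for Egfr and Tgfa, since these genes rose by nearly the same factor. The sequences are from RefSeq (GRCm38.p6), chr11:16751953-16752202 on the plus strand for Egfr and chr6:86194972-86195221 on the plus strand for Tgfa, written 5′ to 3′ with matches to the GC box in capitals.
Egfr: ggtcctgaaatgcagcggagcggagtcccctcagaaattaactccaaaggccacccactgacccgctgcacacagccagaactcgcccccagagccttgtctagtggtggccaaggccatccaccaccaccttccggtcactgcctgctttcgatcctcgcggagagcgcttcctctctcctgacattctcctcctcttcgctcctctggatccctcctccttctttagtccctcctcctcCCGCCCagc
Tgfa: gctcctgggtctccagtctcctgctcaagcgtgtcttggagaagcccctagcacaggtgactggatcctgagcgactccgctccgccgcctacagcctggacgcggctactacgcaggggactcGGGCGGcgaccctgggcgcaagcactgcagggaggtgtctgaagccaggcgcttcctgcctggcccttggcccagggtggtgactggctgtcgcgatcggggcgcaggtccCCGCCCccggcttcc
Motifs were searched on both strands. The letters were GACCACCCA for the Gli motif, TGANTCA for the AP-1 motif and GGGCGG for the GC box, and in these windows the GC box alone matched. Egfr held 1 GC box and Tgfa held 2, and 32.7% of the 32851 promoter windows of this length held at least 1. Neither the Gli motif (in 0.225% of all windows) nor the AP-1 motif (in 6.75%) was found in these letters, nor in any of the 8 windows that cover 7 of the 10 genes. The GC content was 60.8% for Egfr and 69.2% for Tgfa, with a median of 52.4% over all windows.

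The other ligands gave lower or scarcely detectable levels. Ereg (ENSMUSG00000029377, chromosome 5 from 91503443 to 91522875) encodes epiregulin, which acts through Egfr and Erbb4. It had vehicle counts of 171, 210 and 181 reads and purmorphamine counts of 112, 100, 104 and 104, with no overlap. Its log2 fold change was -0.88 with a standard error of 0.105 (adjusted p = 2.75e-06 from edgeR), a 1.84-fold decrease.

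Hbegf (ENSMUSG00000024486, chromosome 18 from 36664383 to 36675659) encodes heparin-binding EGF-like growth factor, which also acts through Egfr and Erbb4. It had vehicle counts of 74, 70 and 60 reads and purmorphamine counts of 24, 25, 26 and 21. The purmorphamine libraries were well below all vehicle libraries. It decreased 2.92-fold (log2 fold change -1.54, SE 0.169, adjusted p = 9.84e-07 from edgeR).

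Btc (ENSMUSG00000082361, chromosome 5 from 91786087 to 91832139), which encodes betacellulin, had vehicle counts of 13, 20 and 9 reads and purmorphamine counts of 21, 26, 22 and 18. The groups overlapped. Its log2 fold change was 0.58 (standard error 0.28, 95% interval -0.0082 to 1.18, adjusted p = 0.0985 from edgeR). The call was lost with DESeq2 (adjusted p = 0.208), without DMSO replicate 2 (adjusted p = 0.218 from edgeR) and without DMSO replicate 4 (0.371), the library with the fewest Btc reads. The log2 fold change was 0.36 without DMSO replicate 4 and 0.92 without DMSO replicate 3. Btc passed the filter on low counts in 2 of 3 vehicle and in 4 of 4 purmorphamine libraries.

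Areg (ENSMUSG00000029378, chromosome 5 from 91568441 to 91577658), which encodes amphiregulin, had 2, 1 and 1 reads with vehicle and none in any purmorphamine library. As a count of 0 allows up to 3 reads, all libraries lay within that limit, no fold change is given, and a difference in size was not measurable at this depth. Areg, Ereg and Btc lie with Epgn, the gene for the ligand epigen, on 376 kb of chromosome 5. Epgn had vehicle counts of 4, 1 and 4 reads and purmorphamine counts of 0, 5, 6 and 2. Of these 4 neighbours, Ereg alone exceeded 26 reads in a library.

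Of the feedback inhibitors, Errfi1 (ENSMUSG00000028967, chromosome 4 from 150227828 to 150243201) had vehicle counts of 636, 623 and 650 reads and purmorphamine counts of 235, 249, 204 and 223. The groups were far apart, with little spread inside either. Its log2 fold change was -1.53 with a standard error of 0.0722 (adjusted p = 2.07e-11 from edgeR), a 2.89-fold decrease. Lrig1 (ENSMUSG00000030029, chromosome 6 from 94554323 to 94650352) had vehicle counts of 196, 195 and 193 reads and purmorphamine counts of 189, 199, 180 and 177. These ranges overlapped, and the log2 fold change of -0.11 with a standard error of 0.0868 (adjusted p = 0.315 from edgeR) did not pass the threshold. Its 95% interval, from -0.29 to 0.073, leaves room for a small change in either direction.

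For the genes other than Egfr and Areg, single-gene values were also compared by an exact permutation test (two-sided, over the 35 assignments of 7 libraries, after TMM scaling). This exact test gave p = 0.0286, the smallest that 3 libraries against 4 can give, for Erbb2, Erbb3, Ereg, Hbegf, Tgfa and Errfi1. It gave p = 0.0571 for Btc and for Lrig1 by the same exact test. Without Egfr, 6 of the 8 genes tested in the fit had groups that did not overlap in the deposited counts, as had 49.5% of all genes tested.

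**Figure D2:**
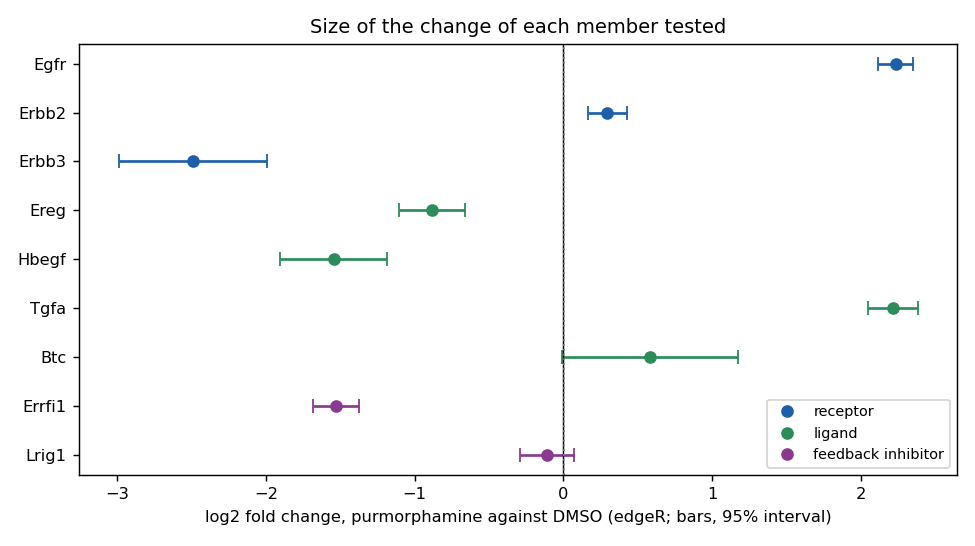
Log2 fold change of the 9 genes in the fit, purmorphamine against vehicle, with 95% intervals derived from the edgeR fit, coloured by role. The solid line marks 0 and the dotted line the median of all genes tested (0.0038). Egfr at 2.24 and Tgfa at 2.22 lie at the right, Erbb3 at -2.49 at the left, and the intervals of Btc and Lrig1 include 0.

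To compare levels between genes, reads were scaled to the length of all annotated exons of each gene as well as to depth (RPKM, reads per kilobase of exon at equal depth). In vehicle-treated cells Egfr was highest, at 15.6 ± 0.498 RPKM (SD, n = 3), followed by Errfi1 at 12.6 ± 0.32 and Erbb2 at 9.89 ± 0.6. Ereg was at 3.22 ± 0.336 RPKM, Lrig1 at 2.48 ± 0.0173 and Tgfa at 1.80 ± 0.2. Hbegf, Erbb3, Btc and Areg followed in this order, at or below 1.0 RPKM. No neighbours in this order overlapped between libraries. This spread leaves out any error in the exon lengths, and the annotation used for the counts is not given.

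In purmorphamine-treated cells the level of Egfr was 73.4 ± 4.22 RPKM (SD, n = 4), and Erbb2 came next at 12.1 ± 0.69. Tgfa stood above Errfi1, at 8.36 ± 0.332 against 4.37 ± 0.346 RPKM, where with vehicle Errfi1 had been well above Tgfa. Lrig1 was at 2.29 ± 0.116 RPKM and Ereg at 1.75 ± 0.0862. Hbegf (0.341 ± 0.0317 RPKM) and Btc (0.331 ± 0.0498) overlapped between libraries and could not be ordered. Erbb3 was at 0.123 ± 0.0476 RPKM.

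The make-up of each role followed from these levels and rests in part on the Egfr values used to choose the genes, so it is described without a test. Egfr made up 59.6 ± 0.735% (SD, n = 3) of the summed RPKM of the 3 receptors with vehicle and 85.6 ± 1.25% (SD, n = 4) with purmorphamine. The share of Erbb2 went from 37.8 ± 0.828% to 14.2 ± 1.2% although its own level was higher, and that of Erbb3 from 2.67 ± 0.277% to 0.145 ± 0.0607%. The summed receptor level was 26.2 ± 1.04 RPKM with vehicle and 85.7 ± 3.79 with purmorphamine.

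Among the 5 ligands, Ereg held the largest share of summed RPKM with vehicle, 50.9 ± 2.21% (SD, n = 3), and Tgfa with purmorphamine, 77.5 ± 0.916% (SD, n = 4). Tgfa had held 28.5 ± 3.45% with vehicle, and Ereg held 16.2 ± 1.1% with purmorphamine. The share of Hbegf went from 15.9 ± 2.07% to 3.16 ± 0.248%. The summed ligand level went from 6.32 ± 0.38 to 10.8 ± 0.354 RPKM. The ratio of Egfr to Errfi1 in RPKM was 1.24 ± 0.0318 in vehicle-treated cells and 16.9 ± 2.2 in purmorphamine-treated cells. That of Egfr to Lrig1 was 6.30 ± 0.239 and 32.1 ± 2.56, and that of Egfr to Erbb2 was 1.58 ± 0.0532 and 6.07 ± 0.645.

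**Figure D3:**
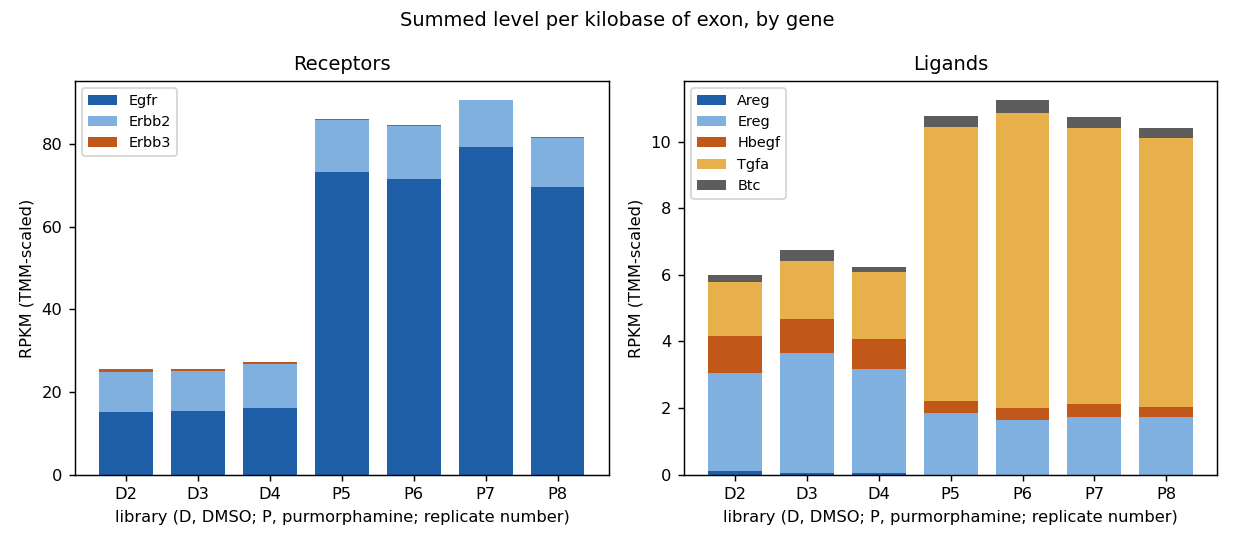
RPKM of the receptors (left) and the ligands (right), stacked by gene for each library, with vehicle libraries D2 to D4 and purmorphamine libraries P5 to P8. Both axes start at 0 and differ in range. Egfr fills most of each receptor bar with purmorphamine, and the largest ligand segment is Ereg with vehicle and Tgfa with purmorphamine.

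Other genes of the pathway were taken from lists of 66 genes, of which 64 have a row and 58 were tested. Of these, 20 were higher and 24 lower at an adjusted p under 0.2, with 62.5% of all genes tested called. Without TMM scaling 22 were higher and 17 lower, and over all genes tested the numbers likewise went from 3887 higher and 3854 lower to 4650 and 3163. Their median log2 fold change was -0.034, beside 0.0038 for all genes tested. Most of the changes were small. With a change of at least 1.5-fold as a further condition, 3 were higher and 6 lower of the 58. Of all genes tested, 15.4% met the same condition in either direction, so small changes were not particular to these lists.

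Of the other ligands, Nrg1, which encodes the neuregulin that binds Erbb3, had vehicle counts of 265, 276 and 288 reads and purmorphamine counts of 237, 250, 244 and 216, all below the lowest vehicle library. Its log2 fold change was -0.27 with a standard error of 0.0818 (adjusted p = 0.0124 from edgeR). Egf itself was scarce, with 33, 32 and 23 reads against 22, 35, 33 and 19, and did not pass the test (adjusted p = 0.640 from edgeR). Nrg2 had at most 11 reads and Nrg4 at most 1, and neither was tested. Nrg3 was not analysed here.

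Of the genes for ligand release, 5 of 6 were tested and all 5 were called lower, where 31.1% of all genes tested were, with small log2 fold changes from -0.27 to -0.099. The smallest was that of Adam17, the main protease for release of several ligands. Its groups overlapped, with 2877, 2804 and 2826 reads against 2666, 2612, 2733 and 2931, and its 95% interval ran from -0.20 to 0.0031 (adjusted p = 0.104 from edgeR). The largest decreases were those of Rhbdf1, a chaperone-like partner of Adam17, from 599 ± 29.0 to 513 ± 69.9 reads (adjusted p = 0.0134 from edgeR), and Adam12, from 546 ± 16.3 to 484 ± 26.9 reads (adjusted p = 0.00802 from edgeR). The groups of Rhbdf1 overlapped and those of Adam12 did not. Without TMM scaling 3 of the 5 were called, all lower, and the calls of Adam17 (adjusted p = 0.395 from edgeR) and Adam9 (adjusted p = 0.213 from edgeR) were lost.

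The adaptors and early effectors were divided, with 3 higher, 3 lower and 3 not called of 9 tested (3 higher and 1 lower without TMM scaling). Of all genes tested, 62.5% were called. The median log2 fold change of the 9 was 0.0033. Gab2, a docking protein, had vehicle counts of 210, 237 and 241 reads and purmorphamine counts of 470, 504, 508 and 445, a 2.03-fold increase (log2 fold change 1.02, adjusted p = 1.44e-08 from edgeR). Its relative Gab1 rose 1.37-fold (log2 fold change 0.46, adjusted p = 1.63e-06 from edgeR). Eps8, a receptor kinase substrate that acts on the actin cytoskeleton, fell 1.80-fold (log2 fold change -0.84, adjusted p = 1.39e-06 from edgeR). Ptpn11, the phosphatase Shp2, fell by 0.12 on the log2 scale (adjusted p = 0.0373 from edgeR), and this call was lost without TMM scaling (adjusted p = 0.209).

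In the Ras-ERK cascade 2 of 10 genes were higher and 4 lower (3 and 2 without TMM scaling), where 62.5% of all genes tested were called. The median log2 fold change of the 10 was -0.067. Mapk3, the kinase ERK1, went from 1824 ± 123 to 1492 ± 124 reads (adjusted p = 0.000285 from edgeR). Araf, a Raf kinase, was higher by 0.16 on the log2 scale. Its log2 fold change was 0.079 without DMSO replicate 4 and its call was then lost (adjusted p = 0.370 from edgeR).

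Genes for receptor down-regulation and other negative regulators gave 7 increases and 3 decreases among 16 tested (8 and 2 without TMM scaling). Over all genes tested, 31.4% were higher and 31.1% lower. The median log2 fold change of the 16 was 0.060. Socs5, which promotes breakdown of the EGF receptor, rose from 2417 ± 25.8 to 3635 ± 115 reads (0.54 on the log2 scale, adjusted p = 2.93e-08 from edgeR). Lrig3, a relative of Lrig1, rose from 1921 ± 94.9 to 2449 ± 135 reads (adjusted p = 0.000134 from edgeR). Ptpn1, a phosphatase that acts on the receptor, and Rnf41, a ubiquitin ligase for Erbb3, fell by 0.24 and 0.16 on the log2 scale. The Rnf41 call was lost without DMSO replicate 4 (adjusted p = 0.202 from edgeR).

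Genes known to respond to ERK moved in both directions. Of the 16 tested, 8 were higher and 8 lower, also without TMM scaling. Over all genes tested, 31.4% were higher and 31.1% lower. The median log2 fold change of the 16 was -0.12. Ccnd1, which encodes cyclin D1, had vehicle counts of 2948, 2723 and 2904 reads and purmorphamine counts of 9497, 9051, 9402 and 9946, a 3.21-fold increase (log2 fold change 1.68, adjusted p = 1.10e-13 from edgeR). Spry1, an inhibitor of receptor tyrosine kinase signaling, rose 2.87-fold from 47, 62 and 74 reads to 187, 172, 170 and 195 (adjusted p = 6.83e-08 from edgeR). In both genes a wide gap separated the groups. Myc had vehicle counts of 369, 354 and 415 reads and purmorphamine counts of 158, 168, 132 and 157, a 2.55-fold decrease (adjusted p = 2.65e-09 from edgeR). Fos, an immediate early gene, fell 2.22-fold, from 96, 94 and 80 reads to 35, 41, 42 and 49 (adjusted p = 6.91e-06 from edgeR). Neither gene had overlapping groups.

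**Figure D4:**
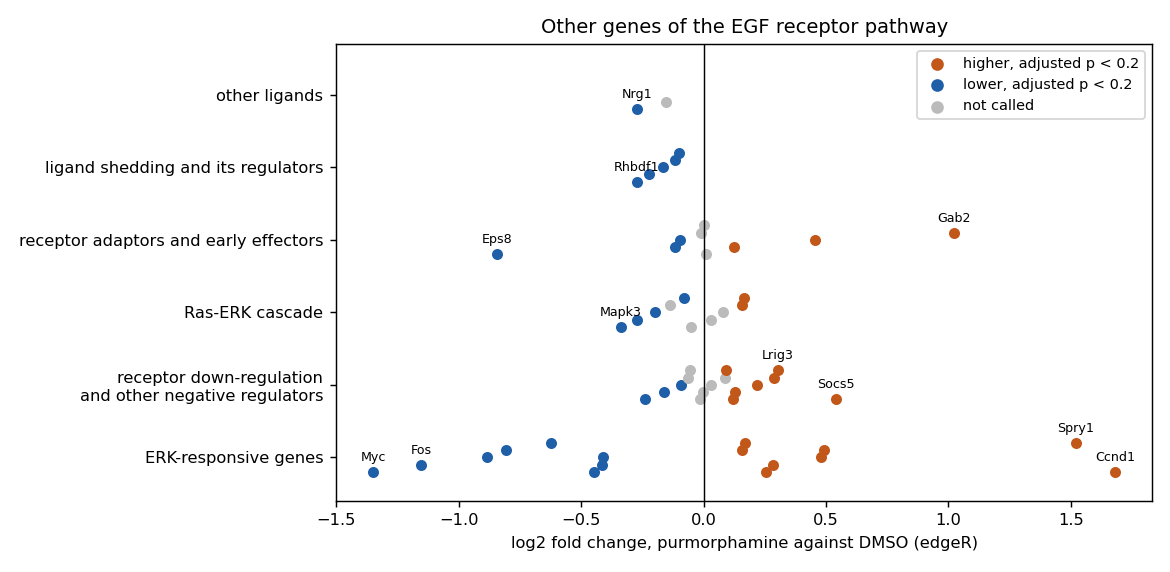
Log2 fold change of the 58 tested genes of the pathway lists, one point per gene, orange for higher, blue for lower and grey for not called at an adjusted p under 0.2 from edgeR, with some of the genes named. Ligand release genes sit just left of 0, and the ERK-responsive genes spread from Myc at -1.35 to Ccnd1 at 1.68.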

How the data were processed

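Total RNA of C3H10T1/2 cells was sequenced in 7 libraries (4 purmorphamine, 3 DMSO). Before counting, the authors resampled the reads to give each library the same number. The deposited counts are whole numbers of sense-strand reads for each gene. The submitters' processing notes name STAR 2.5.3a and the build mm9, and the annotation is not given in the sources used here. Coordinates are those of the table. All columns of counts were used.

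From the counts, edgeR 4.0.16 (R 4.3.3) was used with TMM factors, low counts removed by its default filter (minimum 10 reads, total 15) and the quasi-likelihood test without covariates. The study's own test, limma-voom (limma 3.58.1), and DESeq2 1.42.0 were run as alternatives, with other scaling, filters and thresholds and fits that each omitted 1 library. Calculations were tested on simulated counts in which a small part of the genes changed, each by at least 2-fold. Such a test does not cover smaller changes or data in which most genes change. The exact permutation test used log2 of the scaled reads with 1 added. The likeness to Egfr used log2 of CPM with 0.1 added. Exon lengths for RPKM were taken from GENCODE M21 by Ensembl identifier. A gene without a matching symbol was looked up by identifier, as for Hras.

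The members and lists were chosen with earlier results of these data known, so counts over them are descriptions. Genes named were all 10 members, the other receptors and ligands with a row, the 2 largest called increases and the 2 largest called decreases of each other list, Gli1 and Ptch1, and the 3 genes nearest to Egfr. Adam9, Adam17 and the marker genes are named outside this rule. Some genes that the rule covers are not reported here.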

Additional observations from a re-analysis of the deposited data

How the results depend on the processing

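No paired analysis was possible because vehicle and purmorphamine libraries carry different numbers. Over all genes tested, requiring a change of at least 1.5-fold lowered the numbers by construction, to 977 higher and 936 lower. Among the members other than Egfr, it left Tgfa higher and 4 lower (Erbb3, Ereg, Hbegf and Errfi1). In the pathway lists 3 higher and 6 lower remained. An adjusted p under 0.05 left 12 higher and 19 lower of the 58 genes tested in those lists. Over all 12388 genes tested it left 2879 higher and 2926 lower. Of 118 values of the members other than Egfr under alternatives, 112 kept direction and side of the threshold, and none reversed. The other 6 lost the call, 5 of them for Btc and 1 for Erbb2 (under 1.5-fold). Erbb3 and Btc left the test when at least 10 reads were required in every library, so that setting gave no value for them. Areg, with at most 2 reads in a library, entered the test only without the filter on low counts, which made 5 lower members in place of 4. With each library left out in turn, the log2 fold change ran from 2.20 to 2.27 for Egfr, 2.15 to 2.31 for Tgfa, -2.69 to -2.25 for Erbb3, -1.56 to -1.48 for Errfi1 and 0.36 to 0.92 for Btc. Leaving out TMM factors moved the median log2 fold change by 0.048. The cause of these shifts was not tested. Depth limits Areg, Epgn, Nrg2, Nrg4 and Btc, with few reads in every library, and Erbb3 with purmorphamine, at 5 to 15 reads.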

Other observations

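The dual-specificity phosphatase genes of the ERK-responsive list were singled out after their values were seen. Dusp4, Dusp5 and Dusp6, which encode phosphatases of the MAP kinases, were all lower with purmorphamine. Of all genes tested, 31.1% were lower, and the list they were picked from gave 8 higher and 8 lower of 16. Dusp6 had vehicle counts of 326, 287 and 313 reads and purmorphamine counts of 199, 199, 216 and 215 (log2 fold change -0.62, adjusted p = 8.98e-06 from edgeR). Dusp4 had 49, 46 and 45 reads against 26, 23, 34 and 27, a log2 fold change of -0.81 (adjusted p = 0.00161 from edgeR). Dusp5 had 54, 74 and 65 reads against 39, 58, 43 and 55, with overlapping groups (log2 fold change -0.45, adjusted p = 0.0429 from edgeR).

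The Sprouty and Spred genes, inhibitors of the Ras-ERK cascade and also picked after their values were seen, did not move together. Spry1, Spry4, Spred1 and Spred2 were higher with purmorphamine, with log2 fold changes of 1.52, 0.49, 0.16 and 0.48. The adjusted p values from edgeR were 6.83e-08, 0.0562, 0.0258 and 3.85e-05 in the same order, so the call of Spry4 was the weakest. Of all genes tested, 31.4% were higher. Spry2, the most abundant Sprouty gene by reads, was lower, from 708, 622 and 710 reads with vehicle to 515, 573, 505 and 524 with purmorphamine (log2 fold change -0.41, adjusted p = 8.22e-05 from edgeR).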
